A study of Mus musculus with 15 samples.

Results

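The CXC chemokine genes Cxcl1, Cxcl2, Cxcl3 and Cxcl12 were followed across 5 groups of mouse heart. They were taken by gene symbol from the deposited table, which lists 16658 genes, and all 4 were found and tested among the 13541 genes that passed the filter on low values (at least 0 on the log2 scale of counts per library size, log2 CPM, in at least 3 libraries). RNA came from heart tissue with the infarct and the muscle around it, from male C57BL/6 wild-type mice of 8 to 10 weeks. The groups were sham, untreated, rivaroxaban (3 mg/kg for 7 days before surgery), dabigatran (10 mg/kg for 7 days) and activated protein C (aPC, 1 mg/kg, given 30 minutes before surgery). The surgery of the study was ligation of the left anterior descending coronary artery (LAD) for 90 minutes with 24 hours of reperfusion, and drugs were resumed 2 hours afterwards. The labels describe that surgery for the study and not sample by sample, so sham and untreated are used as the names the labels give. Rivaroxaban blocks coagulation factor Xa, dabigatran blocks thrombin, and aPC is an anticoagulant protease that also signals to cells. The analysis rested on 3 sham libraries and 2 of each other group, 11 of the 15 labelled samples, and the remaining 4 were not analysed here.

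Chemokines are small secreted proteins that steer white blood cells along a gradient. Cxcl1, Cxcl2 and Cxcl3 are closely related ligands of the receptor Cxcr2, through which they draw neutrophils from the blood into injured tissue, and their genes are switched on fast by NF-kB, the transcription factor that interleukin-1 and tumour necrosis factor activate. Cxcl12 is made steadily by stromal and endothelial cells and acts through Cxcr4, which holds neutrophils in the bone marrow and guides progenitor cells, while Ackr3 takes it up and degrades it.

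On the mouse build GRCm38 (mm10) with GENCODE release M21, the first 3 genes lie in 1 cluster on the forward strand of chromosome 5. Cxcl3 spans chr5:90786103-90789600, Cxcl1 spans chr5:90891241-90893115 and Cxcl2 spans chr5:90903871-90905938. The cluster also holds Cxcl5, Ppbp and Pf4, which lie upstream of Cxcl3, and 101.641 kb separate the end of Cxcl3 from the start of Cxcl1. Cxcl12 stands alone on chromosome 6, at chr6:117168535-117181367, forward strand. Each gene has a principal transcript of 4 exons.

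The sequences directly upstream of the genes are shown with their matches to 3 motifs, each searched in a single exact spelling. They were read from RefSeq on GRCm38.p6, where all 4 genes matched, and begin 120 bases before the RefSeq start. Each run stops before the first transcribed base in RefSeq or in GENCODE, whichever is further upstream. Capitals mark an NF-kB site (GGGAATTTCC), a TATA box (ATAAAAG) or a GC box (GGGCGG), each searched on both strands.
Cxcl3: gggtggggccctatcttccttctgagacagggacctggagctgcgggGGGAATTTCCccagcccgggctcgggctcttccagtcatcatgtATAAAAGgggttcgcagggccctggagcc
Cxcl1: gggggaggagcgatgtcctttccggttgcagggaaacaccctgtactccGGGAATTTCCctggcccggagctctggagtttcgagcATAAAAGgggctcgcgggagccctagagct
Cxcl2: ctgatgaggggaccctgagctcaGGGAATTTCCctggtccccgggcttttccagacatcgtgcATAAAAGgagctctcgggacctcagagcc
Cxcl12: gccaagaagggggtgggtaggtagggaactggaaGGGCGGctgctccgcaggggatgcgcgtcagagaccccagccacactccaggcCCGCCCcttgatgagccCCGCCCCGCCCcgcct

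The upstream sequences of Cxcl3, Cxcl1 and Cxcl2 each held the NF-kB letters followed by the TATA box. The run GGGAATTTCCC, of 11 bases, was the longest that all 3 shared. Measured from the GENCODE start, the NF-kB site began 75, 67 and 69 bases upstream of Cxcl3, Cxcl1 and Cxcl2, and the TATA box 31, 30 and 29 bases upstream. In RefSeq the start of Cxcl2 lies 28 bases further downstream, so there its sites are 97 and 57 bases away. Within 250 bases upstream, 0.0852% of 32851 RefSeq promoters held this NF-kB sequence, 4.83% this TATA box and 32.7% a GC box. Cxcl12 had neither of the first pair of motifs in these spellings in that window and had 5 GC boxes, 2 of them sharing a base. Other spellings of an NF-kB site were not searched, so such a site in Cxcl12 would have been missed. The NF-kB letters lie within the run that the 3 genes share, so this match does not independently set them apart from Cxcl12. Cxcl2 had 1 GC box, 139 bases upstream of the RefSeq start and so outside the stretch shown. These matches describe letters and not binding, since no factor's binding was measured.

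**Figure D1:**
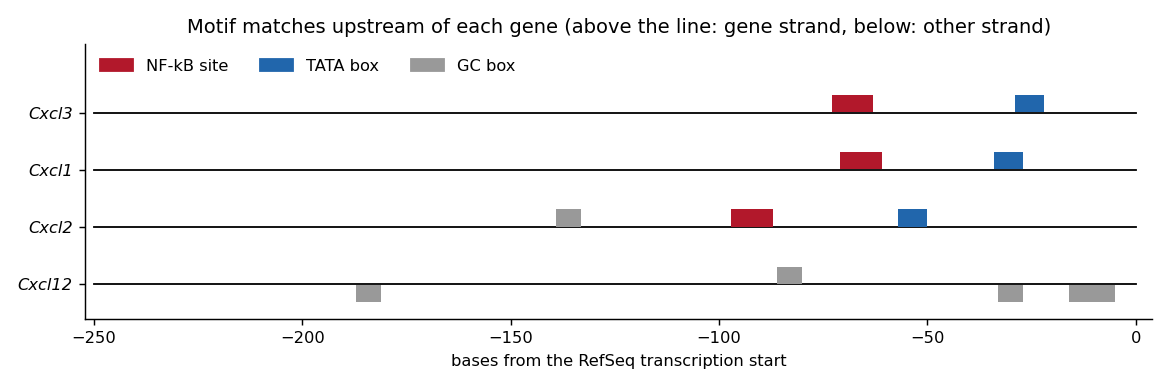
Positions of the motif matches within 250 bases upstream of each gene, with the RefSeq transcription start at 0 on the x axis in bases. Blocks above a line are on the gene's strand and blocks below on the other strand. Cxcl3, Cxcl1 and Cxcl2 each show an NF-kB site and then a TATA box, and Cxcl12 shows GC boxes.

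The transcripts also differed at their other end. AU-rich elements in the 3′ untranslated region, read as the DNA letters ATTTA, are known to mark messages for fast decay. Cxcl3 had 5 of these in 645 bases, Cxcl1 had 7 in 592 bases and Cxcl2 had 11 in 734 bases, against 3 in the 2768 bases of Cxcl12. Per kilobase this was 7.75, 11.8, 14.99 and 1.08, beside a median of 1.16 over 20739 genes. The longer element TTATTTATT occurred 1, 2 and 4 times in Cxcl3, Cxcl1 and Cxcl2 and not in Cxcl12, and 7.12% of genes hold it at least once.

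Each library held between 26203566 (dabigatran replicate Dabi-202) and 36135006 (dabigatran replicate Dabi-204) reads on listed genes, recovered from the deposited log2 CPM. A count of 3 reads lies between -2.83 and -2.41 log2 CPM. The lowest count of any of the 4 genes was 7 reads, for Cxcl3 in rivaroxaban replicate Riva-313, and the highest was 11790 reads, for Cxcl12 in dabigatran replicate Dabi-204. Cxcl2 and Cxcl3 share an identical run of 110 bases in their transcripts, so reads inside it cannot be told apart, and the sources used here do not give how such reads were counted. Heart muscle genes were abundant in every library. Of 10 listed cardiomyocyte markers, 8 were found and summed to 80740 to 100319 CPM in sham and 86500 to 109673 in untreated hearts. With rivaroxaban the sum was 77541 to 83507, with dabigatran 58900 to 59303 and with aPC 92125 to 95504, so dabigatran lay below all others. Of the 8, 3 were lower with dabigatran than in untreated hearts (limma adjusted p under 0.05) and none higher, beside 13.8% of all genes called. The part of this lower heart muscle RNA in the chemokine levels was not tested. The labels give each library its own number and do not say more about its source, so p-values measure the spread between these samples.

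Cxcl1, which attracts neutrophils through Cxcr2, was measured at 2.45, 1.99 and 2.61 log2 CPM in the sham libraries and at 3.72 and 5.19 in the untreated ones. It was 1.29 and 1.67 with rivaroxaban, 5.47 and 3.84 with dabigatran, and 2.24 and 1.71 with aPC. Untreated and dabigatran libraries were high and overlapped each other, and every other library lay below them. The SD within the pair was 1.04 log2 units in untreated and 1.15 in dabigatran hearts, so the libraries of each of these groups differed widely.

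Cxcl2, a second Cxcr2 ligand that macrophages and endothelium release, stood at 1.23, 0.99 and 2.07 log2 CPM in sham and at 3.94 and 3.95 in untreated hearts. With rivaroxaban it was -0.51 and 0.21, with dabigatran 4.28 and 4.32, and with aPC 1.96 and 0.42. Both rivaroxaban libraries lay below all others. The aPC pair overlapped the sham libraries.

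Cxcl3, the third ligand of that receptor, was at 0.35, 0.27 and 1.33 log2 CPM in sham and at 3.47 and 3.08 in untreated hearts. It was -1.67 and -0.02 with rivaroxaban, 5.26 and 4.19 with dabigatran, and 2.91 and 1.21 with aPC. Dabigatran libraries were above the untreated ones without overlap, and the aPC pair overlapped sham.

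Cxcl12 moved within a narrower range and at far higher levels. It was 8.01, 8.10 and 8.36 log2 CPM in sham and 6.99 and 6.71 in untreated hearts. It was 7.75 and 7.87 with rivaroxaban, 8.08 and 8.20 with dabigatran, and 7.89 and 7.78 with aPC. The untreated pair was the only group that stood apart from all others at the low end.

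**Figure D2:**
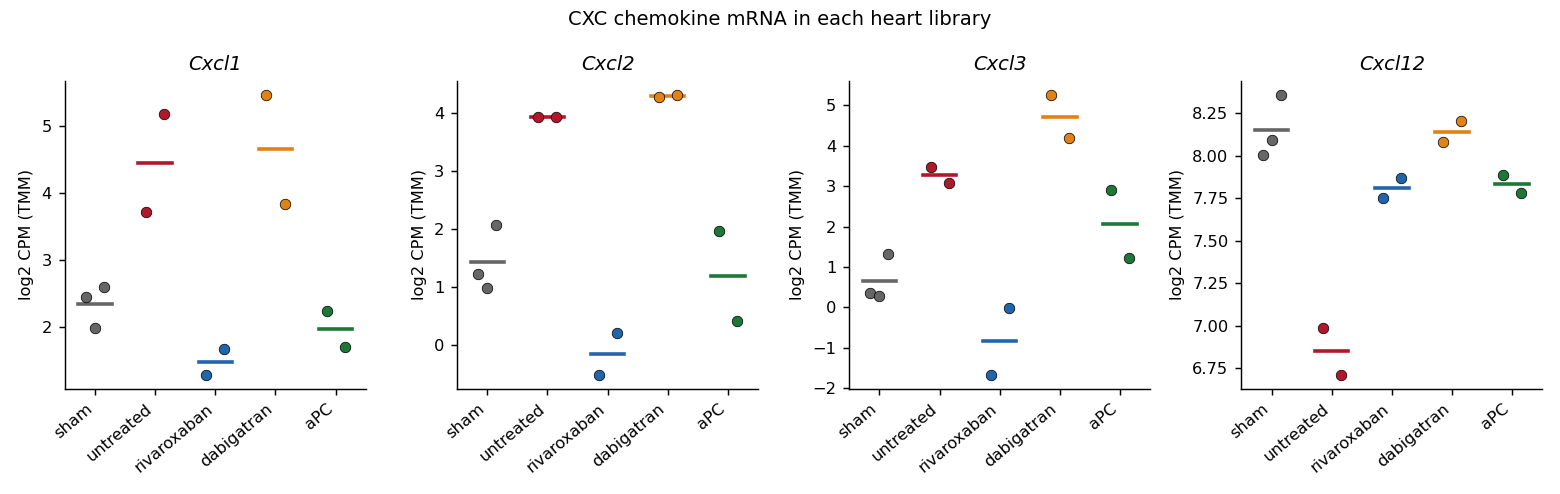
Level of each gene in log2 CPM (y axis) in every library, by group. Points are libraries and the horizontal line is the group mean, and the y axes differ between panels. Cxcl1, Cxcl2 and Cxcl3 are high in untreated and dabigatran hearts, and Cxcl12 is low in untreated hearts only.

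From the highest mean to the lowest, Cxcl1 and Cxcl2 were ordered dabigatran, untreated, sham, aPC and rivaroxaban. Of these neighbours, untreated and sham alone differed beyond the limma threshold. For Cxcl3 the order was dabigatran, untreated, aPC, sham and rivaroxaban, and no neighbouring pair passed. For Cxcl12 it was sham, dabigatran, aPC, rivaroxaban and untreated, where rivaroxaban and untreated were the only neighbours to pass.

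Untreated hearts were set against sham first, to see how these chemokines differed between the groups given these names in the labels. All 4 genes passed the test at an adjusted p under 0.05 (limma-trend with Benjamini-Hochberg adjustment over the 13541 genes), in a comparison where 10.6% of genes were called. The 3 inducible ligands rose. Cxcl1 was higher by 2.10 ± 0.50 (SE, log2 scale; 4.30-fold, adjusted p = 0.0285), Cxcl2 by 2.51 ± 0.45 (5.72-fold, adjusted p = 0.0115) and Cxcl3 by 2.62 ± 0.61 (6.17-fold, adjusted p = 0.0259). Cxcl12 fell by 1.30 ± 0.14 (2.47-fold lower, adjusted p = 0.00131). The directions were the same under every alternative tried, but several calls were lost with 1 library fewer: Cxcl1 without any single sham library or untreated replicate 19 (limma adjusted p between 0.0567 and 0.157), Cxcl2 without sham 006 (0.0532), and Cxcl3 without sham 003 (0.0795), sham 006 (0.0981) or untreated replicate 19 (0.0638). With limma array weights, which gave both untreated libraries a weight of 0.242, none of the 4 was called, and Cxcl1 was not called when only these 5 libraries were fitted (0.053). The difference for Cxcl1 was 2.84 (7.15-fold) without untreated replicate 17 and 1.37 (2.59-fold) without untreated replicate 19.

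The next 3 comparisons ask what each drug did relative to no drug. They share the untreated libraries, so their values are not independent of each other.

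With rivaroxaban all 4 genes passed the test, in a comparison where 8.47% of genes were called. Cxcl2 fell by 4.09 ± 0.49 on the log2 scale (17.1-fold lower, limma adjusted p = 0.00289) and Cxcl3 by 4.12 ± 0.67 (17.4-fold lower, adjusted p = 0.00865). Cxcl1 fell by 2.97 ± 0.55 (7.85-fold lower, adjusted p = 0.0147). Cxcl12 rose by 0.96 ± 0.15 (1.95-fold, adjusted p = 0.00721). Without rivaroxaban replicate Riva-313 the calls for Cxcl1 (0.124), Cxcl3 (0.089) and Cxcl12 (0.0619) were lost, and without replicate Riva-319 those for Cxcl1 (0.071) and Cxcl12 (0.0682). None of the 4 was called with array weights or when only these 4 libraries were fitted. The difference for Cxcl3 was -3.30 (9.85-fold lower) without Riva-313, -4.95 (30.8-fold lower) without Riva-319 and -2.78 (6.87-fold lower) with 1 CPM added before the log, which gave -3.14 (8.83-fold lower) for Cxcl2. That for Cxcl1 was -3.71 (13.0-fold lower) without untreated replicate 17 and -2.24 (4.73-fold lower) without untreated replicate 19.

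With dabigatran the neutrophil attractants did not pass the test, and Cxcl12 alone was called, beside 13.8% of all genes. The difference from untreated was 0.20 for Cxcl1 (95% interval -1.02 to 1.42, limma adjusted p = 0.826), 0.35 for Cxcl2 (-0.74 to 1.45, adjusted p = 0.654) and 1.45 for Cxcl3 (-0.03 to 2.92, adjusted p = 0.165). These intervals leave room for a rise or a fall of about 1 log2 unit in Cxcl1 and for a larger rise in Cxcl3. Cxcl12 rose by 1.29 ± 0.15 (2.45-fold, adjusted p = 0.000855), and this call held in every alternative.

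With aPC, Cxcl1 fell by 2.48 ± 0.55 (5.59-fold lower, limma adjusted p = 0.0159) and Cxcl2 by 2.75 ± 0.49 (6.75-fold lower, adjusted p = 0.00739), while Cxcl12 rose by 0.99 ± 0.15 (1.98-fold, adjusted p = 0.00392). Cxcl3 was not called, at -1.21 (95% interval -2.69 to 0.26, adjusted p = 0.209), although its aPC libraries lay below the untreated ones. The count was 3 of 4 genes, where 17.6% of all genes were called. The calls for Cxcl1 and Cxcl2 were lost without aPC replicate aPC-792 (0.122 and 0.0634), and that for Cxcl1 also without untreated replicate 19 (0.0562). No call held with array weights or with these 4 libraries alone. The difference for Cxcl1 was -3.22 without untreated replicate 17 and -1.75 without replicate 19, and that for Cxcl2 was -3.53 without aPC-791 and -1.98 without aPC-792.

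The drugs were also compared directly, at the single dose each had, on a schedule that for aPC differed from that of rivaroxaban and dabigatran. Of the 10 comparisons, dabigatran against rivaroxaban gave the largest difference for Cxcl1, Cxcl2 and Cxcl3. Cxcl3 was higher by 5.57 ± 0.67 (47.5-fold, limma adjusted p = 0.00066), Cxcl2 by 4.45 ± 0.49 (21.8-fold, adjusted p = 0.000521) and Cxcl1 by 3.17 ± 0.55 (9.03-fold, adjusted p = 0.00335) with dabigatran. Cxcl12 was not called (0.33, 95% interval 0.00 to 0.66, adjusted p = 0.135). These 3 calls of 4 stand beside 23.3% of genes called, and each of the 3 held in every alternative. The size of the difference was less firm. For Cxcl3 it was 4.75 (26.9-fold) without rivaroxaban replicate Riva-313, 6.39 (84.1-fold) without Riva-319 and 4.15 (17.7-fold) with 1 CPM added before the log, which also gave 3.48 (11.1-fold) for Cxcl2. For Cxcl1 it was 2.36 (5.14-fold) without dabigatran replicate Dabi-202 and 3.99 (15.9-fold) without Dabi-204.

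Cxcl1, Cxcl2 and Cxcl3 were lower with aPC than with dabigatran, and the difference, aPC minus dabigatran, was -2.68 ± 0.55, -3.11 ± 0.49 and -2.66 ± 0.67 on the log2 scale (limma adjusted p = 0.00833, 0.00307 and 0.0195). Cxcl12 was not called (-0.31, 95% interval -0.64 to 0.02, adjusted p = 0.168), and 21.5% of genes were. Without dabigatran replicate Dabi-202 the calls for Cxcl1 (0.0673) and Cxcl3 (0.14) were lost, as they were without aPC replicate aPC-792 (0.0674 and 0.153). The difference for Cxcl1 was -1.87 without Dabi-202 and -3.50 without Dabi-204. Without aPC-791 and aPC-792 in turn it was -3.88 and -2.33 for Cxcl2, and -3.51 and -1.81 for Cxcl3.

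Between aPC and rivaroxaban none of the 4 genes was called, in a comparison with 1.54% of genes called. The difference, aPC minus rivaroxaban, was 0.49 for Cxcl1 (95% interval -0.73 to 1.71), 1.34 for Cxcl2 (0.25 to 2.43), 2.91 for Cxcl3 (1.43 to 4.39) and 0.02 for Cxcl12 (-0.31 to 0.36). The limma adjusted p of Cxcl3 was 0.0628, and it passed under 5 alternatives, among them the fits without either untreated library (0.0284 and 0.0283). Before adjustment, 2 of the 4 genes, Cxcl2 and Cxcl3, were under 0.05 in limma, as were 2836 of all 13541.

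**Figure D3:**
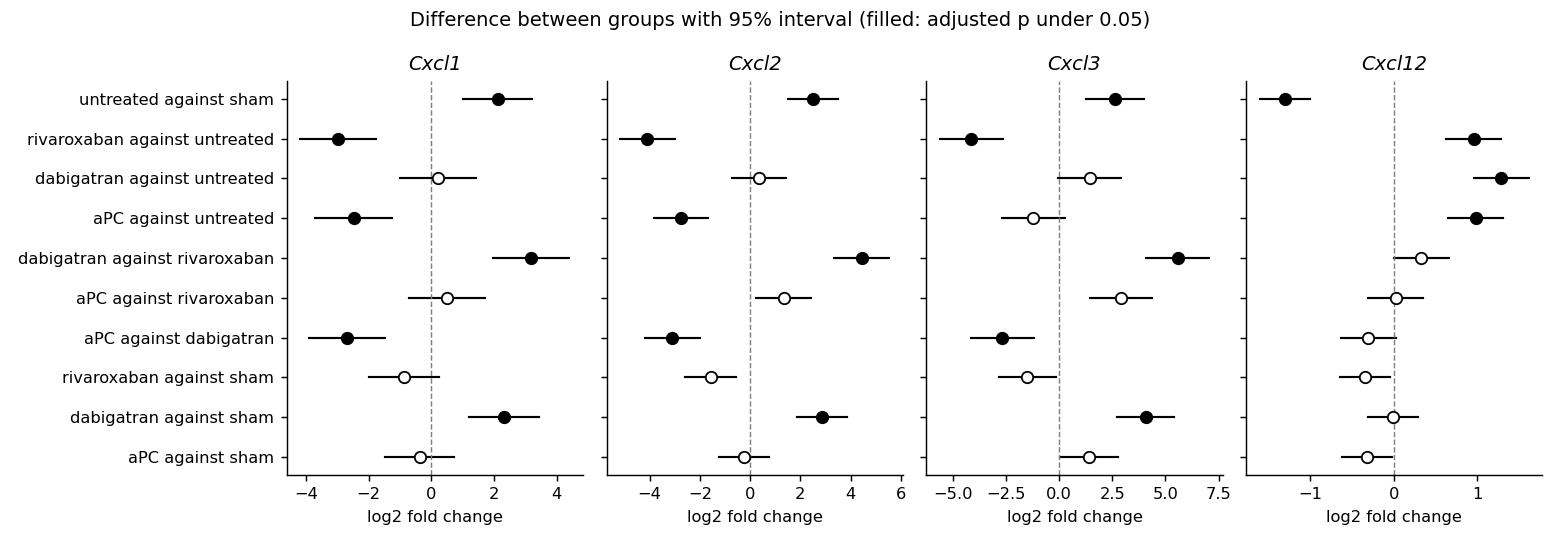
Difference in log2 CPM (x axis, first group minus second) with its 95% interval from limma, for each gene and each of the 10 pairs of groups. Filled points are called at an adjusted p under 0.05. The largest differences of Cxcl2 and Cxcl3 are those between dabigatran and rivaroxaban, at 4.45 and 5.57.

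The 3 drug groups were also set against sham, and these comparisons share the sham libraries. With dabigatran, Cxcl1 (2.31 ± 0.50, limma adjusted p = 0.0129), Cxcl2 (2.87 ± 0.45, adjusted p = 0.00308) and Cxcl3 (4.07 ± 0.61, adjusted p = 0.00247) were higher than in sham, beside 18.5% of genes called. Cxcl12 was -0.01 from sham (95% interval -0.31 to 0.29). The call for Cxcl1 was lost without dabigatran replicate Dabi-202 (0.163), where the difference was 1.49, and without Dabi-204 it was 3.12. For Cxcl3 the difference was 3.43 with 1 CPM added before the log.

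With rivaroxaban none of the 4 genes was called against sham, although each mean was lower. The differences were -0.87 for Cxcl1, -1.58 for Cxcl2, -1.50 for Cxcl3 and -0.34 for Cxcl12, with limma adjusted p between 0.649 and 0.958. In this comparison limma called 0% of genes, while 761 genes had an unadjusted p under 0.05 and 198 were called with array weights. Of the 4 genes, Cxcl2, Cxcl3 and Cxcl12 were under 0.05 before adjustment.

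With aPC none of the 4 differed from sham at the threshold, and 1.17% of genes did. Cxcl1 was at -0.38 (95% interval -1.49 to 0.73), Cxcl2 at -0.24 (-1.24 to 0.76), Cxcl3 at 1.41 (0.06 to 2.76) and Cxcl12 at -0.32 (-0.62 to -0.02). The limma adjusted p ran from 0.274 to 0.829, and before adjustment Cxcl3 and Cxcl12 were under 0.05, as were 2307 of all genes tested.

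To set the genes beside each other, CPM was divided by the length of the principal transcript (1016 bases for Cxcl3, 953 for Cxcl1, 1109 for Cxcl2 and 3132 for Cxcl12). Summed over Cxcl1, Cxcl2 and Cxcl3, the level was 6.97 to 12.4 CPM per kb in sham, 38.5 and 60.3 in untreated, 3.32 and 5.17 with rivaroxaban, 101.5 and 50.8 with dabigatran, and 15.7 and 6.72 with aPC. Cxcl12 was 8.41 to 12.5 times that sum in sham and 20.7 and 14.5 times with rivaroxaban. In untreated hearts the ratio was 1.05 and 0.555, and with dabigatran 0.851 and 1.85. With aPC it was 4.82 and 10.5. The ratio was thus lower in the untreated and dabigatran libraries than in every other library. Its size depends on the transcript length used, and Cxcl12 has 3 protein-coding transcripts.

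The make-up of the sum varied between libraries as well. Cxcl3 made up 13.4%, 16.2% and 19.3% of it in sham, 28.2% and 13.7% in untreated and 7.37% and 17.5% with rivaroxaban. With dabigatran it made up 37.1% and 35.2%, and with aPC 46.8% and 33.0%. The dabigatran and aPC libraries were thus the 4 with the highest Cxcl3 share. Cxcl1 was the largest component in all libraries of sham (50.8% to 63.6%) and rivaroxaban (75.3% and 63.5%). It was also the largest in 1 library of each other group: untreated replicate 19 (63.3%), dabigatran replicate Dabi-202 (45.8%) and aPC replicate aPC-792 (49.9%). These shares are given as a description and were not tested.

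**Figure D4:**
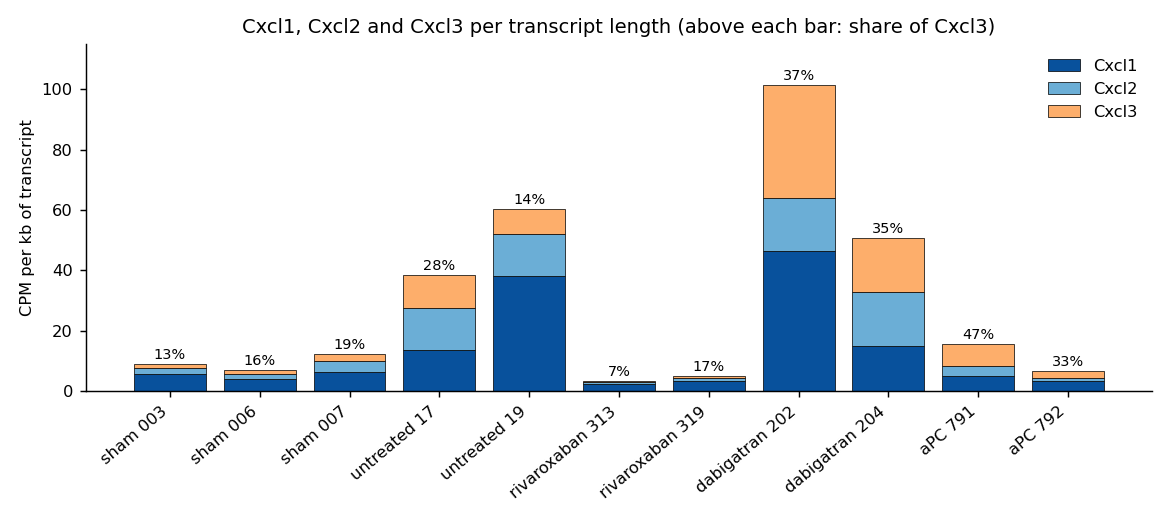
Level of Cxcl1, Cxcl2 and Cxcl3 in CPM per kb of transcript (y axis), stacked for each library (x axis), with the percentage of Cxcl3 above each bar. The dabigatran and aPC bars have the highest Cxcl3 shares, from 33.0% to 46.8%, although the aPC bars are low.

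Of 15 listed CXC ligands, 11 were in the table and all 11 were tested, the 4 above among them. In untreated against sham 4 rose (Cxcl1, Cxcl2 and Cxcl3 among them) and 1 fell (Cxcl12), with a median of 1.42 (log2) beside -0.03 over all genes. The fourth to rise was Cxcl14, a ligand of epithelium and stroma, by 1.94 ± 0.24 (limma adjusted p = 0.00255). With rivaroxaban 1 rose and 5 fell against untreated, with dabigatran 2 rose and 1 fell, and with aPC 2 rose and 3 fell. These counts include the 4 genes above. Of all genes, 10.6% were called in untreated against sham, 8.47% with rivaroxaban, 13.8% with dabigatran and 17.6% with aPC. Cxcl14 fell with each drug, by 2.15 ± 0.26, 1.62 ± 0.26 and 1.28 ± 0.26 for rivaroxaban, dabigatran and aPC (adjusted p = 0.00315, 0.00439 and 0.0126). Pf4, the platelet ligand that neighbours Cxcl3, rose with dabigatran by 1.25 ± 0.31 (adjusted p = 0.0273).

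Cxcr2, the receptor of Cxcl1, Cxcl2 and Cxcl3 on neutrophils, was at 0.45, 0.97 and 2.09 log2 CPM in sham and at 2.79 and 2.93 in untreated hearts. It was -0.30 and 1.66 with rivaroxaban, 6.51 and 5.21 with dabigatran, and 3.14 and 1.65 with aPC. The dabigatran pair was far above every other library. Cxcr2 rose with dabigatran by 3.00 ± 0.74 against untreated (limma adjusted p = 0.0262) and by 5.18 ± 0.74 against rivaroxaban (adjusted p = 0.00136). It was not called in untreated against sham (1.69 ± 0.67, adjusted p = 0.119), rivaroxaban against untreated (-2.18 ± 0.74, adjusted p = 0.0882) or aPC against untreated (-0.46 ± 0.74, adjusted p = 0.668).

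Cxcr4, the receptor of Cxcl12, lay between 1.68 and 3.08 log2 CPM in the sham, untreated, rivaroxaban and aPC libraries and at 3.84 and 3.70 with dabigatran. It was called in dabigatran against rivaroxaban (1.39 ± 0.38, limma adjusted p = 0.0252) and against sham (1.27 ± 0.34, adjusted p = 0.0297), and missed the threshold against untreated (1.24 ± 0.38, adjusted p = 0.0536). Ackr3, the scavenger of Cxcl12, was 6.58 and 6.45 in untreated and 5.58 and 5.92 with dabigatran, a fall of 0.77 ± 0.17 on the log2 scale (adjusted p = 0.0174). Ackr1, which carries chemokines across venules, stayed between -1.13 and 0.88 log2 CPM and was called in none of the 10 comparisons. Of 8 listed CXC receptors 5 were tested: 1 rose and 1 fell with dabigatran against untreated, beside 13.8% of all genes called. None was called in untreated against sham or with rivaroxaban or aPC against untreated, where 10.6%, 8.47% and 17.6% of all genes were.

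Il1b and Tnf, cytokines that induce Cxcl1 and Cxcl2, were not called in untreated against sham. Il1b, interleukin-1 beta, was at 1.88, 2.26 and 3.14 log2 CPM in sham and 2.62 and 2.95 in untreated hearts, which overlapped (0.36 ± 0.41, limma adjusted p = 0.566). It was 0.73 and 1.50 with rivaroxaban, 5.85 and 5.16 with dabigatran, and 3.19 and 2.41 with aPC. Against untreated it fell with rivaroxaban by 1.67 ± 0.45 (adjusted p = 0.0452) and rose with dabigatran by 2.72 ± 0.45 (adjusted p = 0.0044), and with aPC the difference was 0.01 ± 0.45 (adjusted p = 0.985). Tnf ranged from -1.76 to 0.17 outside dabigatran and was 2.16 and 0.86 with it, a rise of 1.95 ± 0.56 against untreated (adjusted p = 0.0442).

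Over the 16 tested genes of inducing cytokines and their receptors, 5 rose and 1 fell in untreated against sham, with a median of 0.75 beside -0.03 for all genes. Il17ra, the receptor subunit for interleukin-17, rose by 1.68 ± 0.30 (limma adjusted p = 0.0115) and Osm, oncostatin M, by 2.09 ± 0.49 (adjusted p = 0.0264). With rivaroxaban 8 fell against untreated and none rose (median -0.99), led by Il17ra (-1.90 ± 0.33, adjusted p = 0.0115) and Osm (-2.61 ± 0.53, adjusted p = 0.0207). With aPC 4 fell (median -0.58) and with dabigatran 5 rose and 1 fell (median 0.86). Of all genes, 10.6% were called in untreated against sham, 8.47% with rivaroxaban, 17.6% with aPC and 13.8% with dabigatran. The gene that fell with dabigatran was F2r, the thrombin receptor, by 0.69 ± 0.19 (adjusted p = 0.0412).

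Nfkbia, the inhibitor of NF-kB, and Nfkbiz, its nuclear co-regulator, are both targets of NF-kB, and both rose in untreated hearts. Nfkbia was 5.66, 5.40 and 5.52 log2 CPM in sham, 6.86 and 7.46 in untreated, 5.78 and 6.18 with rivaroxaban, 6.29 and 6.06 with dabigatran, and 5.76 and 5.27 with aPC. The untreated pair was above all other libraries, and the difference from sham was 1.63 ± 0.21 (limma adjusted p = 0.00286). For Nfkbiz it was 1.57 ± 0.24 (adjusted p = 0.00623). Nfkbia fell against untreated with each drug, by 1.17 ± 0.23, 0.98 ± 0.23 and 1.64 ± 0.23 for rivaroxaban, dabigatran and aPC (adjusted p = 0.0188, 0.0224 and 0.00318). Nfkbiz was 3.58, 3.12 and 3.65 in sham, 4.69 and 5.34 in untreated, 2.97 and 3.32 with rivaroxaban, 4.83 and 4.60 with dabigatran, and 2.97 and 2.74 with aPC. Here dabigatran overlapped untreated (-0.31 ± 0.26, adjusted p = 0.452), while rivaroxaban (-1.87 ± 0.26, adjusted p = 0.00545) and aPC (-2.17 ± 0.26, adjusted p = 0.00175) were lower.

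The list of NF-kB subunits, their inhibitors and message-decay factors had 18 tested genes. In untreated against sham 7 rose and none fell (median 0.65 beside -0.03 for all genes). With rivaroxaban 8 fell (median -0.71), with aPC 10 fell (median -0.67), and neither had a rise. With dabigatran 1 rose and 1 fell (median -0.06). Of all genes, 10.6% were called in untreated against sham, 8.47% with rivaroxaban, 17.6% with aPC and 13.8% with dabigatran. The count with dabigatran is thus no larger a share than that of all genes. Bcl3, an NF-kB co-regulator, fell with rivaroxaban by 1.75 ± 0.27 (limma adjusted p = 0.00663), and Zfp36, whose protein binds AU-rich elements and speeds the decay of messages, fell with aPC by 1.77 ± 0.34 (adjusted p = 0.00913).

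**Figure D5:**
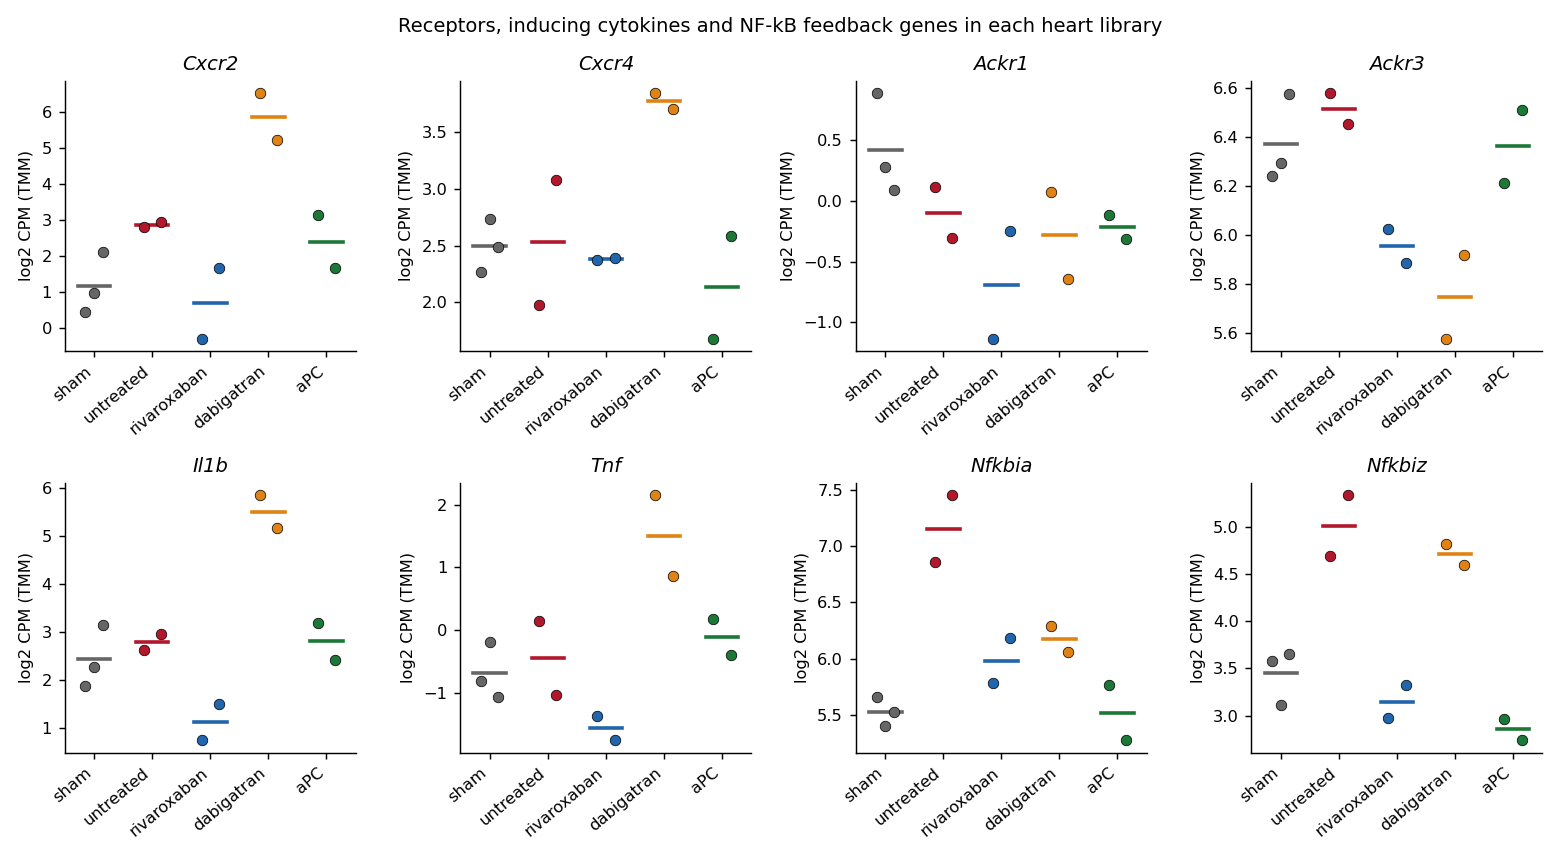
Level in log2 CPM (y axis) of 4 receptors (upper row), the cytokines Il1b and Tnf and the feedback genes Nfkbia and Nfkbiz (lower row) in every library, by group. Points are libraries, lines are group means, and y axes differ between panels. Cxcr2, Il1b and Tnf are highest with dabigatran, while Nfkbia is highest in untreated hearts.

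Markers of neutrophils, the cells that Cxcl1, Cxcl2 and Cxcl3 attract, were summed in each library. Without Lcn2, which took most of the reads of the list in several libraries and was left out after its values were seen, the 16 remaining markers summed to 44.8 to 63.4 CPM in sham, 154 and 223 in untreated, 25.1 and 56.7 with rivaroxaban, 1135 and 638 with dabigatran, and 136 and 54.6 with aPC. With Lcn2, which injured heart cells can make too, the 17 of 22 listed markers found summed to 169 to 201 CPM in sham, 462 to 1028 in untreated, 246 to 276 with rivaroxaban, 788 to 1396 with dabigatran and 211 to 533 with aPC. Ly6g, a defining marker named here after its counts were seen, had 0 reads in the sham and rivaroxaban libraries and in aPC replicate aPC-792, and between 5 and 23 reads in the other 5 libraries. In such bulk RNA, fewer cells of a type and less RNA per cell cannot be told apart, and the part of neutrophil number in the chemokine levels was not tested.

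Of the 15 neutrophil markers tested, 11 rose and none fell in untreated against sham (median 2.02), and 11 fell and none rose with rivaroxaban against untreated (median -2.59), the same directions as Cxcl1, Cxcl2 and Cxcl3. With dabigatran 7 rose and none fell against untreated (median 1.76), where Cxcl1, Cxcl2 and Cxcl3 were not called. With aPC 3 fell and none rose (median -0.96), near the 17.6% of all genes called there. The share of all genes called was 10.6% in untreated against sham, 8.47% with rivaroxaban and 13.8% with dabigatran. S100a8 and S100a9, the calprotectin subunits, rose with dabigatran by 2.60 ± 0.55 and 2.33 ± 0.57 (limma adjusted p = 0.014 and 0.0256). Ngp, a neutrophil granule protein, was called lower with aPC (adjusted p = 0.0113). It had 139 and 99 reads in the untreated libraries against 6 and 0 with aPC, so no fold is given. Ngp reached 0 log2 CPM only in the untreated pair and a dabigatran library. It thus passed the filter through the group in which it is high, and the call cannot count as support.

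Markers of monocytes and macrophages, which can also release these ligands, summed to 339 to 405 CPM in sham, 235 to 322 in untreated, 289 to 305 with rivaroxaban, 480 to 526 with dabigatran and 345 to 437 with aPC. All 14 were tested. In untreated against sham 5 fell and none rose (median -0.51), opposite to Cxcl1, Cxcl2 and Cxcl3. Against untreated 4 rose with rivaroxaban (median 0.32), 6 with dabigatran (median 1.42) and 5 with aPC (median 0.63), and none fell. The share of all genes called was 10.6% in untreated against sham, 8.47% with rivaroxaban, 13.8% with dabigatran and 17.6% with aPC. Of 4 lymphocyte markers tested, 3 rose with dabigatran against untreated (median 2.21), and none was called in the other 2 drug comparisons with untreated or in untreated against sham. The part of these cells in the chemokine levels was not tested.

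The selectins with which endothelium catches neutrophils were among the adhesion genes called. Sele (E-selectin) rose by 1.35 ± 0.29 in untreated against sham (limma adjusted p = 0.0201), fell with rivaroxaban by 2.61 ± 0.32 (adjusted p = 0.00302) and with aPC by 1.68 ± 0.32 (adjusted p = 0.00908). Selp (P-selectin) rose by 1.78 ± 0.41 (adjusted p = 0.0242) and fell with rivaroxaban by 2.71 ± 0.45 (adjusted p = 0.00928) and with aPC by 1.84 ± 0.45 (adjusted p = 0.022). With dabigatran the genes called against untreated included 2 integrin chains of leukocytes, Itgb2 (2.03 ± 0.21, adjusted p = 0.000662) and Itgal (2.31 ± 0.25, adjusted p = 0.000744). Of 14 tested adhesion genes, 4 rose in untreated against sham (median 0.24), 5 fell with rivaroxaban (median -0.39), 3 fell with aPC (median -0.31) and 5 rose with dabigatran (median 0.61), with none called in the other direction. Over all genes 10.6%, 8.47%, 17.6% and 13.8% were called in these comparisons, with medians of -0.03, 0.02, 0.07 and 0.05, so the share with aPC was near that of all genes.

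Cxcl12 can be set beside the cells that make it. Endothelial markers summed to between 1568 and 1970 CPM over all libraries, and in untreated against sham 5 of 10 fell and 1 rose (median -0.46). Among them Aplnr, the apelin receptor, fell by 3.42 ± 0.45 (limma adjusted p = 0.00296) and Emcn by 0.67 ± 0.14 (adjusted p = 0.0195). Against untreated, Aplnr rose with rivaroxaban (2.87 ± 0.49, adjusted p = 0.0111), dabigatran (2.33 ± 0.49, adjusted p = 0.0136) and aPC (2.87 ± 0.49, adjusted p = 0.00627). The list as a whole did not move one way: 3 rose with rivaroxaban (median 0.22), 3 rose and 1 fell with dabigatran (median 0.05), and 4 rose and 2 fell with aPC (median 0.07). The share of all genes called was 10.6% in untreated against sham, 8.47% with rivaroxaban, 13.8% with dabigatran and 17.6% with aPC. Cdh5, the cadherin of endothelial junctions, went the other way from Aplnr. It rose by 0.51 ± 0.13 in untreated against sham (adjusted p = 0.0318) and fell by 0.50 ± 0.14 with dabigatran (adjusted p = 0.0386) and by 0.55 ± 0.14 with aPC (adjusted p = 0.024). Fibroblast and pericyte markers summed to 2148 to 2438 CPM in sham, 1656 to 1967 in untreated, 2388 to 2408 with rivaroxaban, 1365 to 1993 with dabigatran and 2188 to 2392 with aPC. Of the 10 fibroblast and pericyte markers, 2 fell and none rose in untreated against sham (median -0.43). Against untreated 2 rose and none fell with rivaroxaban (median 0.52). None was called with dabigatran (median 0.18), and 1 rose and 1 fell with aPC (median 0.48). The shares of all genes called in these comparisons are those given above. The part of these cells in the level of Cxcl12 was not tested.

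In the list of Cxcl12 receptors, proteases and regulators, all 13 were tested and 1 rose and 2 fell in untreated against sham (median -0.07). Over all genes 10.6% were called in that comparison, with a median of -0.03. Dpp4, a protease that cuts Cxcl12, fell by 2.32 ± 0.50 (limma adjusted p = 0.0205), and against untreated it rose with rivaroxaban (2.58 ± 0.55, adjusted p = 0.0238) and aPC (3.15 ± 0.55, adjusted p = 0.0068). Each of these differences rests on the untreated pair, where Dpp4 had only 5 and 21 reads, against 48 to 85 in sham. Mmp9, which also cleaves Cxcl12 and is abundant in neutrophils, rose by 1.47 ± 0.34 in untreated against sham (adjusted p = 0.0242) and with dabigatran by a further 2.96 ± 0.37 (adjusted p = 0.00121). Vegfa fell by 1.19 ± 0.19 in untreated against sham (adjusted p = 0.00684). With rivaroxaban 2 of the 13 rose and 1 fell, with dabigatran 4 rose and 3 fell, and with aPC 1 rose and 1 fell. Beside the 8.47%, 13.8% and 17.6% of all genes called in these comparisons, the count with aPC is no larger a share than that of all genes.

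Across the 11 libraries, the genes most like each chemokine were ranked by Pearson's r of log2 CPM among 11451 genes with a mean of at least 1 log2 CPM. These are descriptions over libraries that share groups. Cxcl1 was most like Nek6 (r = 0.983), Gatad2a, Pprc1, Ptpn1 and Cep170b. Cxcl2 was most like Sele (r = 0.975), Adamts4, Selp, Plaur and Litaf, which include both endothelial selectins. Cxcl3 was most like Clec4d (r = 0.976), S100a9, Rnd1, S100a8 and Cd14, of which Clec4d, S100a8 and S100a9 are on the neutrophil list. Cxcl12 was most like Rab3il1 (r = 0.952), Pcdh18, S1pr2, Megf6 and Pxylp1. Among the chemokines themselves r was 0.921 for Cxcl1 with Cxcl2, 0.849 for Cxcl1 with Cxcl3 and 0.930 for Cxcl2 with Cxcl3, and between -0.36 and -0.16 for Cxcl12 with each of these. In the ranking for Cxcl1, Cxcl2 was at place 226 and Cxcl3 at 717. For Cxcl2, Cxcl3 was at place 49 and Cxcl1 at 69, and for Cxcl3, Cxcl2 was at 39 and Cxcl1 at 401. Many other genes were thus as much like each of the 3.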

How the data were processed

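Per the labels, strand-marking libraries were made from the polyadenylated part of 500 ng RNA. The deposited table holds log2 CPM scaled by the trimmed mean of M values. The tools that the submitters' processing notes name are STAR, edgeR, Trim Galore, FastQC and bcl2fastq, with build mm10. Counter, annotation and strand setting: not given in the sources used here. Whole reads were recovered from the deposited values (100% of the low values tested came out whole within 0.05 of a read), and recovered depth was 26203566 to 36135006 reads.

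Means of 5 groups were fitted over 11 libraries with limma-trend (limma 3.58.1, R 4.3.3), two-sided, with Benjamini-Hochberg adjustment over genes at 0 log2 CPM or more in at least 3 libraries. Groups share an estimate of spread. Over all genes the untreated pair varied most (array weight 0.242), though not for Cxcl2 or Cxcl3, whose SD there (0.0015 and 0.28 log2) was the smallest of the 5 groups. On simulated data, 92 (aPC against dabigatran) to 100 (rivaroxaban against sham) of 100 genes changed 4-fold were recovered among 13541, and of 100 changed 2-fold 48 (rivaroxaban against untreated) to 70 (dabigatran against sham). Between 4 (dabigatran against rivaroxaban) and 11 (dabigatran against untreated) unchanged genes were called. The simulation gave all groups the same spread and changed only genes with a mean above 1 log2 CPM. Its rates therefore do not cover groups of unequal spread, such as the untreated pair. The 4 genes, the lists and the comparisons were chosen with earlier results of these data known. Genes named from a list were up to 4 of smallest p in a comparison, plus 8 receptors, inducers and feedback genes. Alternatives were other filters, scalings, weights, variance models, only the 2 groups compared, 1 CPM added, voom on recovered reads and leaving out each library. Sequences are from RefSeq and GENCODE M21.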

Additional observations from a re-analysis of the deposited data

How the results depend on the processing

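Each of the 40 values (4 genes in 10 comparisons) was recomputed under 21 alternatives. All 21 called values kept their direction in every one, 7 stayed called in every one and 10 stayed called without each single library. Of the 19 values not called, 2 were called under some alternative and 4 changed sign. No paired analysis was possible because the groups share no replicate numbers.

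The number of the 4 genes called was 0 with array weights for untreated against sham, rivaroxaban against untreated and aPC against untreated (4, 4 and 3 in the report), and 0 for the latter pair of comparisons when only the 2 groups compared were fitted. For aPC against rivaroxaban, with 0 in the report, it was 1 after quantile normalization, 1 with only the 2 groups fitted and 2 with array weights. Leaving out 1 library gave 1 to 4 called genes for untreated against sham, 1 to 4 for rivaroxaban against untreated, 1 to 3 for aPC against untreated, 1 to 3 for aPC against dabigatran and 0 to 1 for aPC against rivaroxaban. A library left out of a pair leaves 1, which is then assumed to vary like the other groups.

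The changes of sign were all in values not called. Cxcl12 in aPC against rivaroxaban became -0.11 after quantile normalization and ran from -0.035 (without rivaroxaban replicate Riva-313) to 0.084 with 1 library left out, where the fit without aPC replicate aPC-791 gave -0.028. Cxcl12 in dabigatran against sham became 0.054 with array weights and ran from -0.0845 to 0.091 (without sham replicate 007), with 0.051 without dabigatran replicate Dabi-202. Cxcl2 in aPC against sham ran from -1.01 to 0.53 (without aPC replicate aPC-792), with 0.080 without sham replicate 007. Cxcl1 in dabigatran against untreated ran from -0.61 (without dabigatran replicate Dabi-202) to 1.01, with -0.53 without untreated replicate 17. The cause was not tested. Median centring moved the median of all genes by -0.11 in dabigatran against untreated and by 0.13 in aPC against dabigatran, where quantile normalization moved it by 0.10.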
